A study of Homo sapiens with 22 samples.

Results

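KRT8, KRT18, CD24, CD44, VIM, CDH2 and WT1 are genes read in many studies as signs of epithelial, mesenchymal or kidney progenitor identity. They were chosen by name, with earlier results of these data known, and all 7 had a row among the 15797 genes of the deposited table. The study compared clones of the established human embryonic kidney line HEK293 that make clotting factor VIII with or without its B domain, and asks how that deletion affects secretion. There were 6 clones with B-domain deleted factor VIII (BDD, clones 1, 2, 7, 12, 13 and 27) and 4 clones with full length factor VIII (FL, clones 4, 7, 9 and 10), untreated and grown in plates to partial confluency. A further line was titled HEK 28. Its genotype label also reads full length, and HEK28 is the cell line label of every sample, so it was kept apart from the FL clones. No line without a factor VIII construct was labelled as such. BDD clone 2 carries the title "oldbdd", which the labels do not explain.

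Each line had 2 libraries, a and b, giving 12 BDD, 8 FL and 2 HEK 28 libraries of 4951081 to 6197084 reads. The value of a clone is the mean of its libraries, in log2 CPM (counts scaled to a common library size). The labels do not say whether clones arose from separate transfections or libraries from separate cultures, so p-values measure only the spread between these clones. In 3 BDD clones the libraries differed more than elsewhere. The SD of library a minus library b over 7726 genes was 0.84 in clone 2, 0.53 in clone 12 and 0.42 in clone 13, against 0.27 to 0.37 in the other lines. Libraries 2b, 12a and 13b lay farther from the profile of their group, and results are also given without these 3 libraries, a choice made after seeing the data.

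Keratins 8 and 18 pair to form the intermediate filaments of simple epithelia, such as kidney tubules, while vimentin (VIM) forms those of mesenchymal cells and of many cultured lines. CDH2 is N-cadherin, the adhesion molecule that replaces E-cadherin when epithelial cells become mesenchymal. CD24 is a small glycosylated surface protein and CD44 is the main cell surface receptor for hyaluronan, and WT1 is a zinc finger transcription factor of the kidney mesenchyme and podocyte.

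Promoter sequences are shown for 4 of these genes, KRT8 and CD24, which were higher in BDD clones, and CD44 and WT1, which lie on chromosome 11 and were lower. Each line gives the 250 bases before the RefSeq start site (GRCh38.p14), written from 5′ to 3′ on the strand of the gene, and capitals mark matches to a motif. The windows are chr12:52926470-52926719 on the minus strand for KRT8, chr6:106975628-106975877 on the minus strand for CD24, chr11:35138921-35139170 on the plus strand for CD44 and chr11:32435540-32435789 on the minus strand for WT1.
KRT8: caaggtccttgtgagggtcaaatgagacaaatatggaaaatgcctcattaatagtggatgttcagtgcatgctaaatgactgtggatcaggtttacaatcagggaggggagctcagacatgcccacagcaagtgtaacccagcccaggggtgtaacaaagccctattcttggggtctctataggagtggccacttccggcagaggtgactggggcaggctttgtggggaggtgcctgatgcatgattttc
CD24: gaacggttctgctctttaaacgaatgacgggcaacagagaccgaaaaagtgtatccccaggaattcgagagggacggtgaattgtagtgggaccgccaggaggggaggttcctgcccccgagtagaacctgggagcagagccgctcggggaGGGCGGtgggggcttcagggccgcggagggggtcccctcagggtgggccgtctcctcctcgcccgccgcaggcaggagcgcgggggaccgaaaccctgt
CD44: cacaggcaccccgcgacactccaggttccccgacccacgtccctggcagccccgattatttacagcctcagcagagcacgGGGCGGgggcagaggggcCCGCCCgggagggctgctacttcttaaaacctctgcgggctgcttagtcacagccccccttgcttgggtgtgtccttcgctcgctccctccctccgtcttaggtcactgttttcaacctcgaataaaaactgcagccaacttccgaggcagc
WT1: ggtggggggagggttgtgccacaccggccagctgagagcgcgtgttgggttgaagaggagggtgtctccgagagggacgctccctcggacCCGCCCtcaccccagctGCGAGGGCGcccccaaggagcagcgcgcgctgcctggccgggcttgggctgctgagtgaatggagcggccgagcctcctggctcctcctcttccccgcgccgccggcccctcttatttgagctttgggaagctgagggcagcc

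The promoter table had an entry for 6 of the 7 genes, all but KRT18. Where a gene had several start sites, the one farthest 5′ was used. The motifs searched on both strands were the GC box (GGGCGG), the CCAAT box (CCAAT), the TATA box (TATAAA), AP-1 (TGANTCA), EGR (GCGNGGGCG) and an E box (CAGGTG). The GC box was found 2 times before CD44 and 1 time before each of CD24 and WT1, and 42.6% of 35116 promoters of the same length hold it. The WT1 window also held the EGR motif, GCGAGGGCG, starting 143 bases before the start site, and 8.42% of promoters hold that motif. None of the 6 motifs was in the KRT8 window, the only one listed for that gene. It lies inside the annotated span of KRT8 (52897187 to 52949954), and other starts of the gene were not searched. VIM (chr10:17227991-17228240) had 1 GC box, and CDH2 (chr18:28177131-28177380) had 1 GC box and 1 CCAAT box, the latter present in 32.0% of promoters. GC content was 50.4% in the KRT8 window, 65.6% in that of CD24, 62.4% in that of CD44 and 70.4% in that of WT1, where the median promoter had 58.0%. A match describes the letters only.

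Of the 7 genes, 6 differed between BDD and FL clones. KRT8, KRT18 and CD24 were higher in BDD clones and CD44, VIM and WT1 were lower, while CDH2 did not pass the test. A call here is an adjusted p under 0.05 in limma over all 15611 genes tested. Calls were common in this comparison: 32.5% of all genes passed, 16.1% higher and 16.5% lower in BDD clones. As the 7 genes were chosen with earlier results known, their own share called cannot be weighed against these shares. Clone values did not overlap between BDD and FL for 5 of the 7 genes (all but VIM and CDH2) and for 22.7% of all genes. With whole-culture RNA, fewer cells expressing a gene and less RNA per cell cannot be told apart.

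**Figure D1:**
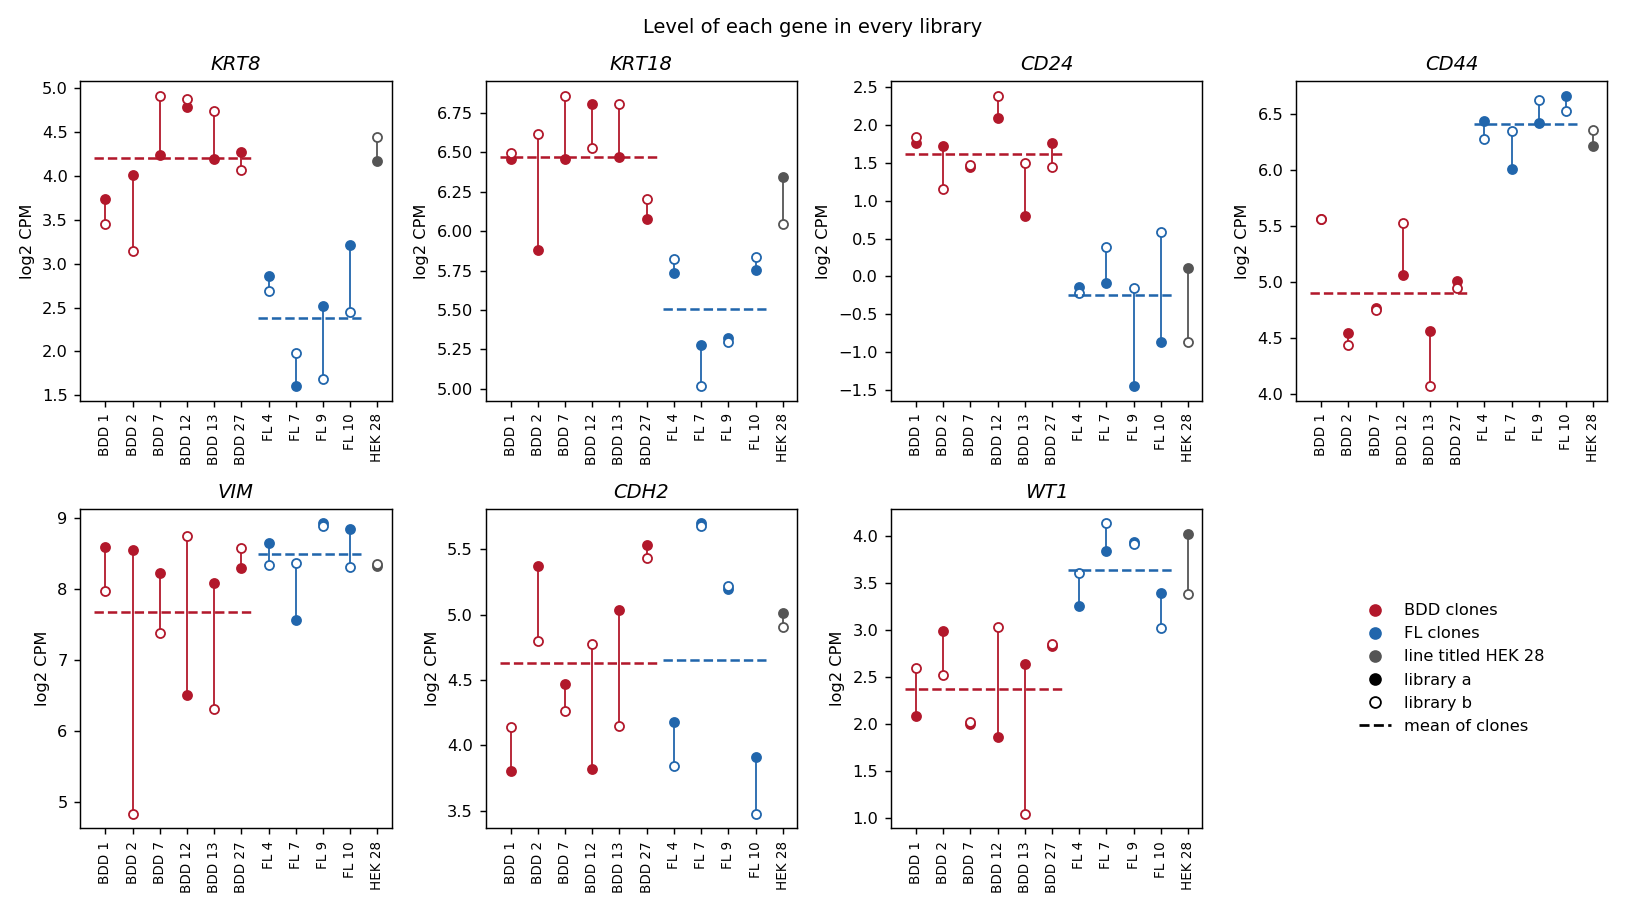
Level of the 7 genes in log2 CPM (vertical axis) in each line (horizontal axis), with library a filled, library b open, a line joining the 2 libraries and dashed lines at the mean of the BDD and FL clones. KRT8, KRT18 and CD24 are higher and CD44 and WT1 lower in every BDD clone than in any FL clone, and VIM falls to 4.83 in library 2b.

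KRT8 (ENSG00000170421, chromosome 12, 52897187 to 52949954 on GRCh38, minus strand) was at 3.58 log2 CPM in the lowest BDD clone, clone 2, at a median of 4.32 and at 4.84 in the highest, clone 12. In FL clones 4, 7, 9 and 10 its level was 2.77, 1.80, 2.10 and 2.83. Every BDD clone lay above every FL clone, by at least 0.75. The means were 4.20 ± 0.52 (SD, n = 6) and 2.38 ± 0.51 (SD, n = 4), a 3.55-fold difference (log2 difference 1.83, SE 0.28, limma adjusted p = 0.00033). In reads, libraries held 41 to 168 in BDD clones and 14 to 49 in FL clones.

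KRT18 (ENSG00000111057, chromosome 12, 52948871 to 52952901, plus strand), the partner of KRT8, moved the same way by a smaller step. BDD clones ran from 6.14 log2 CPM in clone 27 through a median of 6.56 to 6.67 in clone 12. FL clones 4, 7, 9 and 10 had 5.78, 5.15, 5.31 and 5.80. The groups did not overlap, with 0.35 between the lowest BDD and the highest FL clone. The means were 6.47 ± 0.23 (SD, n = 6) and 5.51 ± 0.33 (SD, n = 4), a 1.95-fold difference (log2 difference 0.97, SE 0.16, limma adjusted p = 0.00046).

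KRT8 and KRT18 stand side by side on opposite strands, and their annotated spans overlap by 1084 bases, with 525 exonic bases in common. Whether the counting used strand is not given in the sources used here, so reads of the shared bases may be split or counted for either gene. The exonic bases number 6881 for KRT8 and 3218 for KRT18. Pseudogenes of both keratins, most of them processed copies, are scattered over the genome, with 50 for KRT8 and 67 for KRT18 named in GENCODE 29, and reads could be lost to them or come from them. Only KRT8P12 and KRT18P55 had values in the table. KRT18P55 was higher in BDD clones (0.71 ± 0.39, SD, n = 6, against -0.63 ± 0.24, SD, n = 4, log2 difference 1.33, limma adjusted p = 0.0050), and KRT8P12 was not called (-0.39, limma adjusted p = 0.44). Of the genes on either side, EIF4B, a translation initiation factor and the next in the table on the right, was lower in BDD clones (-0.71, limma adjusted p = 0.0024), and ATG101, an autophagy gene and the next on the left, had 0.16 (limma adjusted p = 0.50).

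CD24 (ENSG00000272398, chromosome 6, 106969831 to 106975627, minus strand) was low in these cells, and reads could be counted one by one. BDD libraries held 8 to 28 reads and FL libraries 0 to 6, with 182 reads in the 12 BDD libraries and 24 in the 8 FL libraries. BDD clones ran from 1.15 log2 CPM in clone 13 through a median of 1.53 to 2.24 in clone 12, and FL clones 4, 7, 9 and 10 had -0.18, 0.15, -0.80 and -0.14. The lowest BDD clone lay 0.997 above the highest FL clone. The means were 1.61 ± 0.37 (SD, n = 6) and -0.24 ± 0.40 (SD, n = 4), a 3.62-fold difference on a scale that includes the deposited prior of 0.367 CPM (log2 difference 1.85, SE 0.30, limma adjusted p = 0.00043). The size of the step depended on that prior, from 1.30 with a pseudocount of 1 CPM to 2.40 with one of 0.1 CPM. QRSL1 and C6orf203, the next genes in the table on either side, were both lower in BDD clones, at -0.49 (limma adjusted p = 0.0079) and -0.51 (limma adjusted p = 0.013).

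CD44 (ENSG00000026508, chromosome 11, 35138870 to 35232402, plus strand) was the member with the lowest adjusted p. BDD clones ran from 4.32 log2 CPM in clone 13 through a median of 4.87 to 5.57 in clone 1. FL clones 4, 7, 9 and 10 had 6.36, 6.18, 6.52 and 6.60. Every FL clone was above every BDD clone by at least 0.62, and the FL clones lay within 0.42 of each other. The means were 4.90 ± 0.48 (SD, n = 6) and 6.42 ± 0.19 (SD, n = 4), a 2.86-fold lower level in BDD clones (log2 difference -1.52, SE 0.21, limma adjusted p = 0.00014). Libraries of a clone agreed to within 0.49 in BDD and 0.34 in FL clones. Of its neighbours in the table, PDHX had -0.42 (limma adjusted p = 0.062) and SLC1A2 had 0.16 (limma adjusted p = 0.72).

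WT1 (ENSG00000184937, chromosome 11, 32387775 to 32435630, minus strand) was also lower. BDD clones ran from 1.84 log2 CPM in clone 13 through a median of 2.40 to 2.84 in clone 27, and FL clones 4, 7, 9 and 10 had 3.44, 3.99, 3.93 and 3.21. The gap between the highest BDD and the lowest FL clone was 0.37. The means were 2.37 ± 0.40 (SD, n = 6) and 3.64 ± 0.38 (SD, n = 4), a 2.41-fold lower level in BDD clones (log2 difference -1.27, SE 0.25, limma adjusted p = 0.0015). Library 13b held 9 reads of WT1 and its level was 1.05, against 2.64 in library 13a. WT1-AS, an RNA that starts beside WT1 on the other strand and overlaps it by 113 bases, was at 1.23 ± 0.61 (SD, n = 6) in BDD and 0.42 ± 0.22 (SD, n = 4) in FL clones and did not pass the test (0.81, limma adjusted p = 0.072).

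CD44 and WT1 share a chromosome whose genes were low in 2 of the BDD clones, a comparison added after seeing the data. Relative to the FL mean, the median gene of chromosome 11 lay at -0.51 in BDD clone 7 and -0.57 in BDD clone 13, between -0.059 and -0.0064 in BDD clones 1, 2, 12 and 27, and at 0.0073 in HEK 28. Of 841 chromosome 11 genes tested, 210 were lower in BDD clones (25.0%) and 70 higher (8.32%), and their median difference of -0.22 was the lowest of 23 chromosomes. With all libraries, clones 7 and 13 had the lowest WT1 levels of the BDD clones, 2.01 and 1.84, and clone 13 the lowest CD44 level. The rank of clone 13 rested on library 13b. In library 13a alone WT1 was at 2.64, above clone 1 at 2.35, and CD44 at 4.56, above clone 2 at 4.49. Without these clones CD44 was at -1.33 (SE 0.20, limma adjusted p = 0.00091) and WT1 at -1.04 (SE 0.24, limma adjusted p = 0.0083), both still called. DNA copy number is not analysed here, and its part in these levels was not tested. Clones 7 and 13 also shared a higher median on chromosome 15, at 0.475 in both. The other BDD clones had 0.034 to 0.155 there and HEK 28 had 0.296. Whether these 2 clones are related was not tested, and every test counts them as separate clones. The chromosomes of the other 5 genes had median differences between -0.064 and 0.043.

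**Figure D2:**
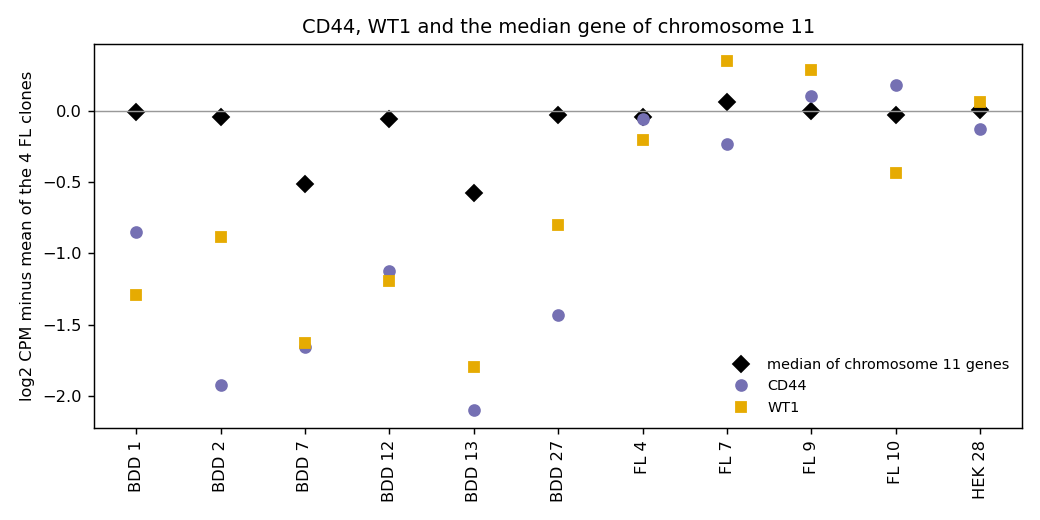
Log2 CPM minus the mean of the 4 FL clones (vertical axis) for CD44, WT1 and the median gene of chromosome 11 in each line (horizontal axis). The median gene is near 0 except in BDD clones 7 and 13, at -0.51 and -0.57, while CD44 and WT1 are below every FL clone in all 6 BDD clones.

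VIM (ENSG00000026025, chromosome 10, 17228259 to 17237593, plus strand) was lower in BDD clones on average, and this rested on single libraries. BDD clones 1, 2, 7, 12, 13 and 27 had 8.28, 6.69, 7.81, 7.62, 7.20 and 8.44 log2 CPM, and FL clones 4, 7, 9 and 10 had 8.50, 7.96, 8.91 and 8.58. BDD clones 1 and 27 lay within the FL range and the other 4 below it. The means were 7.67 ± 0.66 (SD, n = 6) and 8.49 ± 0.39 (SD, n = 4), a 1.76-fold lower level in BDD clones (log2 difference -0.81, SE 0.28, limma adjusted p = 0.037).

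The libraries of a BDD clone disagreed on VIM. Library 2a was at 8.55 and library 2b at 4.83 (136 reads), library 12b at 8.74 and 12a at 6.50, and library 13a at 8.09 and 13b at 6.32. The gaps of 3.72, -2.24 and 1.78 (a minus b) were among the widest of all: 28, 39 and 32 of 7726 genes, VIM included, had gaps at least as wide. In all, 7 genes, VIM among them, had gaps of the same sign and at least as wide as those of VIM in all 3 clones. Without libraries 2b, 12a and 13b the BDD mean was 8.32 ± 0.34 (SD, n = 6), and the difference of -0.17 did not pass the test (limma adjusted p = 0.53). The call for VIM was also lost in 7 of 10 fits that left out 1 clone (limma adjusted p up to 0.13), those without BDD clone 2, 7, 12 or 13 or FL clone 4, 9 or 10. Why these libraries differ was not tested.

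CDH2 (ENSG00000170558, chromosome 18, 27950966 to 28177446, minus strand) had the widest spread within a group. BDD clones ran from 3.97 log2 CPM in clone 1 through a median of 4.48 to 5.48 in clone 27, and FL clones 4, 7, 9 and 10 had 4.01, 5.69, 5.21 and 3.69. FL clones fell into 2 high and 2 low, spanning 2.00, and BDD clones lay inside that span. The means were 4.63 ± 0.56 (SD, n = 6) and 4.65 ± 0.95 (SD, n = 4), and the difference of -0.017 (SE 0.36, limma adjusted p = 0.97) had either sign under other scalings. FL clones 7 and 9, high in CDH2, had the lower KRT18 levels (5.15 and 5.31) and FL clones 4 and 10 the higher (5.78 and 5.80). This was seen after the fact in 4 clones and was not tested. Over the 6 BDD clones the 2 genes had Pearson r = -0.80 (exact permutation p = 0.064, adjusted p = 0.45), but r = 0.80 without the 2 farthest clones.

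**Figure D3:**
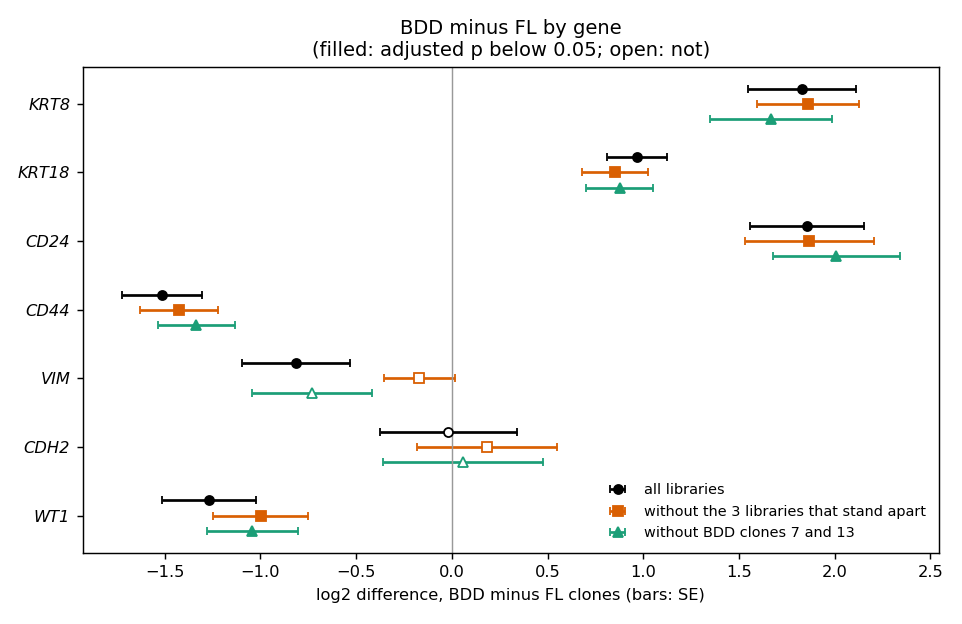
Log2 difference, BDD minus FL clones (horizontal axis; bars are SE), for each gene, with all libraries, without the 3 libraries that stand apart and without BDD clones 7 and 13; filled symbols passed an adjusted p under 0.05. VIM moves from -0.81 to -0.17 without the 3 libraries and loses its call, while KRT8, KRT18, CD24, CD44 and WT1 are called in all 3.

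Without the 3 libraries the other calls stood: KRT8 at 1.86 (limma adjusted p = 0.00021), KRT18 at 0.85 (limma adjusted p = 0.0023), CD24 at 1.87 (limma adjusted p = 0.0011), CD44 at -1.43 (limma adjusted p = 0.00022) and WT1 at -0.999 (limma adjusted p = 0.0081). None of these 5 overlapped between groups there either, though the share of all genes without overlap was not computed in that setting.

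The line titled HEK 28 had keratin levels inside the range of the BDD clones and the other 5 levels inside the range of the FL clones. Its VIM and CDH2 levels also lay inside the BDD range, so only CD24, CD44 and WT1 were inside the FL range alone. Its KRT8 level was 4.31 (4.17 and 4.44 in libraries a and b) and its KRT18 level 6.20 (6.35 and 6.04). CD24 was at -0.38 with 4 reads and 1 read, CD44 at 6.29, VIM at 8.34, CDH2 at 4.96 and WT1 at 3.70. Both keratin levels lay above those of every FL clone, the highest of which had 2.83 and 5.80.

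With 1 line, its spread had to be assumed equal to that of the clones. Against FL, limma called 0% of 15639 genes (0 of the 7), with 800 genes and 2 of the 7 at an unadjusted p under 0.05. Those 2 were KRT8 (1.93, SE 0.49, limma adjusted p = 0.60) and KRT18 (0.69, SE 0.27, limma adjusted p = 0.89). With each library taken as a separate sample, KRT8 passed (limma adjusted p = 0.035), but that fit counts repeat libraries of a line as independent samples. The other 5 differed from FL by -0.15 to 0.31.

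BDD clones were compared with HEK 28 in the same fit, which called 4.79% of genes and 2 of the 7. CD24 was higher (1.99, SE 0.50, limma adjusted p = 0.036) and CD44 lower (-1.39, SE 0.35, limma adjusted p = 0.036) in BDD clones. Both calls were lost without BDD clone 7 (limma adjusted p = 0.056 and 0.060) and without the 3 libraries (limma adjusted p = 0.065 and 0.0501). That of CD24 was also lost without BDD clone 1 (limma adjusted p = 0.056). WT1 had -1.33 (SE 0.41, limma adjusted p = 0.072), VIM -0.67 (limma adjusted p = 0.43), CDH2 -0.33 (limma adjusted p = 0.79), KRT18 0.28 (limma adjusted p = 0.57) and KRT8 -0.10 (limma adjusted p = 0.92). These comparisons share the HEK 28 line and the BDD or FL clones with the one above, so their agreement is no separate evidence.

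Library scaling cancels in a ratio within a library, except for the deposited prior of 0.367 CPM. With 0 to 6 CD24 reads per FL library, the size of the ratio to CD24 depends on that prior. CD44 to CD24, a pair often read together on the cell surface, had a log2 ratio of 3.29 ± 0.27 (SD, n = 6) in BDD and 6.66 ± 0.54 (SD, n = 4) in FL clones, a 10.3-fold lower ratio (exact two-sided permutation p = 0.0048, the smallest that 210 assignments of the clones allow). BDD clones ran from 3.05 to 3.76 and FL clones 4, 7, 9 and 10 had 6.54, 6.03, 7.32 and 6.74, with HEK 28 at 6.67 among them. VIM to KRT8 was 3.47 ± 0.81 (SD, n = 6) against 6.11 ± 0.51 (SD, n = 4), a 6.25-fold lower ratio (exact two-sided permutation p = 0.0048), and VIM to KRT18 was 1.20 ± 0.72 (SD, n = 6) against 2.98 ± 0.42 (SD, n = 4), a 3.43-fold lower ratio (exact two-sided permutation p = 0.0095).

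Both ratios with VIM depended on the libraries that stand apart. VIM to KRT8 differed by -2.64 on the log2 scale with all libraries and by -2.03 without those 3 (exact two-sided permutation p = 0.0048), and by -2.11 with library a only and -3.17 with library b only. VIM to KRT18 differed by -1.78 with all libraries, -1.02 without those 3 (exact two-sided permutation p = 0.014), -1.29 with library a only and -2.27 with library b only.

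HEK 28 stood within the BDD range for both ratios of VIM to a keratin, at 4.03 for KRT8 and 2.14 for KRT18. KRT8 to KRT18 rose from -3.13 ± 0.18 (SD, n = 4) in FL to -2.27 ± 0.42 (SD, n = 6) in BDD clones, a 1.82-fold difference (exact two-sided permutation p = 0.0095). All 4 ratios had a Benjamini-Hochberg adjusted p of 0.0095 by that test. They use the levels already compared, so they restate those differences on a within-library scale.

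**Figure D4:**
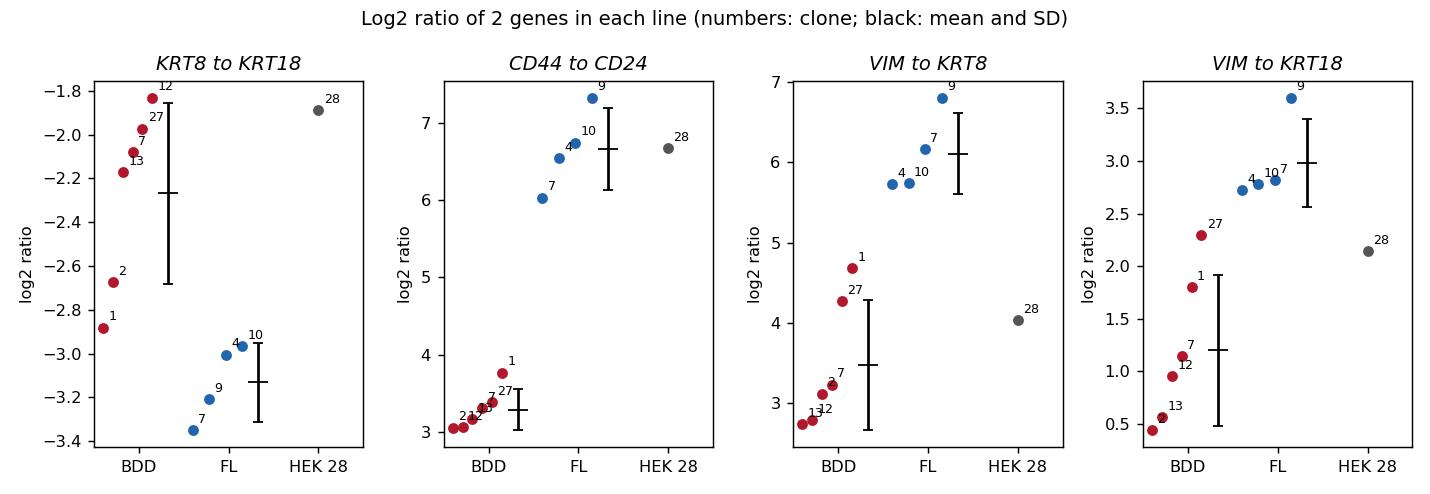
Log2 ratio of 2 genes (vertical axis) in each BDD clone, FL clone and the HEK 28 line (horizontal axis), numbered by clone, with the mean and SD of the clones in black. HEK 28 is at 6.67 among the FL clones for CD44 to CD24 and at 4.03 among the BDD clones for VIM to KRT8.

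Levels of different genes were compared per kilobase of exon. In FL clones the order of mean levels in log2 CPM per kilobase was VIM (6.12), KRT18 (3.82), CD44 (3.09), CDH2 (2.34), WT1 (1.60), KRT8 (-0.41) and CD24 (-1.87). Clone ranges of neighbours overlapped only between CD44 and CDH2 and between CDH2 and WT1. In BDD clones the order was VIM (5.31), KRT18 (4.79), CDH2 (2.33), CD44 (1.58), KRT8 (1.42), WT1 (0.33) and CD24 (-0.017), and every pair of neighbours but KRT18 and CDH2 overlapped in range. By this length KRT8 stood below WT1 in FL clones and above it on average in BDD clones. HEK 28 had VIM at 5.97, KRT18 at 4.51, CD44 at 2.96, CDH2 at 2.65, WT1 at 1.66, KRT8 at 1.53 and CD24 at -2.01.

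Within the 6 BDD clones, none of the 21 pairs among the 7 genes had a correlation with an adjusted p under 0.05, a comparison added after seeing the data. The smallest p was that of CD24 and CD44, both highest in clones 1 and 12 (Pearson r = 0.83, exact permutation p = 0.036, adjusted p = 0.45; Spearman rho = 0.94, exact permutation p = 0.017, adjusted p = 0.35; r = 0.98 without the 2 farthest clones). The largest r in size was that of KRT18 and WT1, at -0.84 (exact permutation p = 0.061, adjusted p = 0.45), with rho = -0.60 (exact permutation p = 0.24, adjusted p = 0.78) and r = -0.32 without the 2 farthest clones, on which it rests. The keratin pair KRT8 and KRT18 had r = 0.65 (exact permutation p = 0.17, adjusted p = 0.69), rho = 0.83 (exact permutation p = 0.058, adjusted p = 0.61) and r = 0.85 without the 2 farthest clones.

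Lists of related genes were read beside these members, without the members themselves. Of 47 other epithelial genes listed, 14 had no value, the keratins KRT7 and KRT19 among them. Of the 31 tested, 11 were higher and 0 lower in BDD clones. The share called, 35.5%, was near the 32.5% over all genes, and the median difference was 0.60 against 0.0087 over all genes. Medians of the lists below ran from -0.24 for the transition factors to 0.58 for cadherins, and neuronal markers had 0.91. A positive median was thus not particular to epithelial genes. Of the 33 epithelial genes in the table, 9 averaged under 1 log2 CPM. Over all genes, calls of at least 2-fold were 1243 higher and 481 lower in BDD clones. JUP, plakoglobin of desmosomes and adherens junctions, rose from 4.62 ± 0.18 (SD, n = 4) to 5.69 ± 0.23 (SD, n = 6) log2 CPM (limma adjusted p = 0.00011). PATJ, a scaffold of the tight junction, rose by 0.94 (limma adjusted p = 0.00013). ESRP1, an epithelial splicing regulator whose known targets include CD44, rose by 2.04 (limma adjusted p = 0.0013). It was low, at a mean of -0.41 log2 CPM in FL and 1.63 in BDD clones, where 0 reads give -1.45. GRHL1, a transcription factor of epithelia, rose by 1.30 (limma adjusted p = 0.0016). All 4 were higher in every BDD clone than in any FL clone, which their choice as the called genes of smallest p favours. Without the 3 libraries 8 were higher, with CDH3, OCLN and ELF3 lost (limma adjusted p = 0.079, 0.088 and 0.10). The classical markers CDH1 (E-cadherin) and EPCAM, named after their values were seen, were low and not called. CDH1 averaged 0.75 log2 CPM in BDD and 0.32 in FL clones (limma adjusted p = 0.45), and EPCAM 0.018 and 0.33 (limma adjusted p = 0.61).

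Of 41 mesenchymal genes listed, 13 had no value. Those tested had 9 of 28 higher and 1 lower in BDD clones, with a median of 0.28. The share called, 35.7%, was again near that of all genes. ACTA2, smooth muscle actin, rose from 3.90 ± 0.37 (SD, n = 4) to 5.55 ± 0.42 (SD, n = 6) log2 CPM (limma adjusted p = 0.00010). MMP14, a membrane-bound matrix protease that can cleave CD44, rose by 2.48 (limma adjusted p = 0.0021), from a low mean of -0.715 log2 CPM in FL clones. COL5A1, a fibrillar collagen chain, rose by 1.08 (limma adjusted p = 0.0030) and MMP2, a gelatinase that MMP14 activates, by 1.48 (limma adjusted p = 0.0058). Among 14 transcription factors that drive the epithelial to mesenchymal transition, 0 were higher and 1 lower. TWIST2 was that gene (-0.58, limma adjusted p = 0.036), and its call was lost in 6 of 10 fits without 1 clone (limma adjusted p up to 0.12) and without the 3 libraries (-0.34, limma adjusted p = 0.19).

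**Figure D5:**
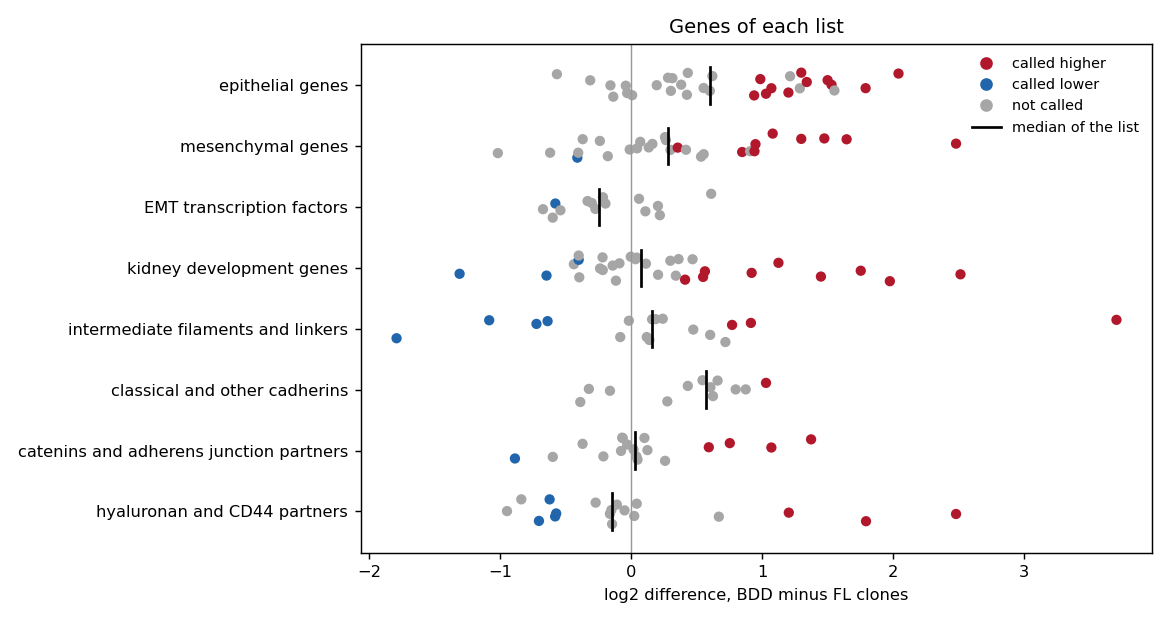
Log2 difference, BDD minus FL clones (horizontal axis), of each tested gene of 8 lists (vertical axis, spread within a list for visibility), coloured by call, with a black bar at the median. Called epithelial genes are all higher, while the intermediate filament list holds KRT17 at 3.70 and NEFM at -1.79.

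Kidney development genes, the setting of WT1, had 9 of 30 higher and 3 lower (40.0% called, median 0.079). HOXC11 rose by 2.51 (limma adjusted p = 5.4e-05), from a low mean of -0.0315 log2 CPM in FL clones. HOXA11, another patterning gene of the posterior body and kidney, fell by 1.31 (limma adjusted p = 0.00022). GDNF, the ligand that draws out the ureteric bud, rose by 1.98 (limma adjusted p = 0.00019), and ITGA8, an integrin of the same mesenchyme, by 1.75 (limma adjusted p = 0.00036). None of these 4 overlapped between groups, which their choice by smallest p again favours. GDNF was at -0.67 in HEK 28 against 1.12 in FL and 3.10 in BDD clones on average.

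Other intermediate filament genes and linkers moved in both directions, 3 of 17 higher and 4 lower (41.2% called, median 0.16). KRT17, a keratin of stressed and basal epithelium, rose 13.0-fold, from -0.35 ± 0.90 (SD, n = 4) to 3.35 ± 0.66 (SD, n = 6) log2 CPM (limma adjusted p = 2.6e-05), with HEK 28 at 1.73 between the groups. The neurofilament genes NEFM and NEFL, which HEK293 cells are known to express, fell by 1.79 (limma adjusted p = 2.0e-05) and 1.08 (limma adjusted p = 8.8e-05), and LMNB1, a nuclear lamin, by 0.64 (limma adjusted p = 0.0013). In HEK 28 NEFM was at 12.03, as in FL clones (12.04), and BDD clones were at 10.25.

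Cadherins other than CDH2 had 1 of 12 higher, CDH3 (1.03, limma adjusted p = 0.020), which is also on the epithelial list and lost its call in 2 of 10 fits without 1 clone. Catenins and other adherens junction genes had 4 of 18 higher and 1 lower (27.8% called). Besides JUP these included CTNND2 (1.37, limma adjusted p = 0.0060), a delta-catenin, CTNNA3 (0.75, limma adjusted p = 0.0092), an alpha-catenin, and NECTIN4 (0.59, limma adjusted p = 0.0077), a transmembrane adhesion molecule. With the trends of each clone on expression level, GC content, length and gene span removed, CTNND2 (0.64, limma adjusted p = 0.16), CTNNA3 (0.31, limma adjusted p = 0.28) and CDH3 (0.72, limma adjusted p = 0.077) were not called. The list of hyaluronan enzymes and CD44 partners had 3 of 18 higher and 4 lower (38.9% called). MMP9, a protease that docks on CD44, rose by 1.79 (limma adjusted p = 0.0020), from a low mean of -0.88 log2 CPM in FL clones. HMMR, another hyaluronan receptor, fell by 0.62 (limma adjusted p = 0.0052) and MSN, moesin, which ties CD44 to actin, by 0.58 (limma adjusted p = 0.010). MSN was not called without the 3 libraries (-0.34, limma adjusted p = 0.090).

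Some of these counts moved with the libraries used. Without the 3 libraries the mesenchymal list had 9 higher and 1 lower, kidney development 8 and 2, intermediate filaments 3 and 4, the transition factors 1 and 2, cadherins 0 and 0, catenins and junction genes 5 and 0, and the hyaluronan list 3 and 2. With the same trends removed, intermediate filaments had 1 higher and 4 lower, cadherins 0 and 0, catenins and junction genes 2 and 2, and the hyaluronan list 2 and 6. The epithelial list then had 11 higher and 1 lower and the mesenchymal list 9 and 1.

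Markers of other cell types were read as a check on the label. Values were given for 2 of 9 fibroblast, 1 of 7 endothelial and 7 of 9 neuronal markers, and PECAM1, VWF, PDGFRA and DCN had none. The summed neuronal level ran from 6.10 to 7.60 log2 CPM in BDD clones and 5.68 to 6.92 in FL clones, with 4 of 7 higher and 1 lower (2 and 0 without the 3 libraries). Of the fibroblast markers, COL1A1 was higher (0.95, limma adjusted p = 0.013) and COL3A1 was not called (-0.40, limma adjusted p = 0.41). FLT1 of the endothelial list was higher (0.62, limma adjusted p = 0.0052). The part of these genes in the results was not tested.

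For each of the 7 genes, the 3 genes of nearest profile over the 11 lines were found by the root-mean-square difference of centred log2 levels, among 11301 genes. KRT8 lay nearest to SYTL1, SYNPO and DLG4 (0.33 to 0.41, against 0.99 for the spread of KRT8 itself). KRT18 lay nearest to C12orf57, FBXL19-AS1 and LNCTAM34A (0.148 to 0.149, own spread 0.51) and CD24 to EEF1A2, RAB9B and FOXO6 (0.26 to 0.29, own spread 0.99). CD44 was nearest to RBM3, CCNB1 and NAGPA (0.18 to 0.21, own spread 0.81). RBM3, a cold-inducible RNA-binding protein, was at 7.53 in HEK 28 and 7.62 in FL clones but 5.91 in BDD clones on average. VIM was nearest to UBE2T, CPOX and CDC42SE1 (0.175 to 0.22, own spread 0.63), and CDH2 to ZNF124, C5orf22 and PRKAA1 (0.25 to 0.28, own spread 0.63). All these profiles include the 3 libraries that stand apart, on which the VIM levels of their clones depend. The genes nearest to VIM may therefore share the disagreement between libraries rather than a difference between clones. Whether they stay nearest without those 3 libraries was not tested. WT1 was nearest to EI24, TIMM10 and PPP1R14B (0.158 to 0.195, own spread 0.72), which all lie on chromosome 11 as WT1 does.

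Genes within 1 Mb of each start site were counted as the local setting, where 32.5% of all genes tested were called. The median difference was 0.0087 over all genes and -0.22 over chromosome 11, which holds CD44 and WT1. Around KRT8 and KRT18, 4 of 27 tested genes were higher, the partner keratin included, and 3 lower (median 0.067). Around CD24 the counts were 1 higher and 4 lower of 10 (median -0.20), and around CD44 2 higher and 2 lower of 9 (median -0.22). WT1 had 2 higher and 2 lower of 15 (median -0.11), among them EIF3M, the next gene in the table on the right, lower at -0.77 (limma adjusted p = 0.0083), and RCN1 on the left at 0.046 (limma adjusted p = 0.82). VIM had 2 higher and 0 lower of 8, with HACD1 beside it at 0.64 (limma adjusted p = 0.0099) and TRDMT1 on the other side at -0.25 (limma adjusted p = 0.48). CDH2 had a single tested neighbour, CHST9, which was higher (0.93, limma adjusted p = 0.0060).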

How the data were processed

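Total RNA gave 22 libraries of Illumina reads, per the labels' protocols. Bowtie, TopHat2, cutadapt, FastQC and the hg38 build appear in the submitters' processing notes, without versions or roles. How reads were counted, filtered and scaled, and whether by strand, is not given in the sources used here. Values deposited by the authors are log2 CPM of 15797 genes. In every library 100% of values were whole reads within 0.01, above an added 2 reads for a library of mean size (0.367 CPM), so fold changes of low genes are understated.

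The design allowed for counts; as the unit is log2, limma was used. Libraries a and b were averaged per clone. Genes with at least 1 CPM in at least 4 of 10 clones (15611) were fitted by lmFit and eBayes with trend (limma 3.58.1, R 4.3.3), with p-values adjusted by Benjamini and Hochberg at 0.05. A fit over 11 lines (15639 genes) gave the contrasts with HEK 28. Ratios were tested by exact permutation in Python 3.11.15 (numpy 2.4.6, pandas 2.3.3, scipy 1.17.1), and the limma script was checked on simulated data. Positions are from GENCODE 29, promoters from RefSeq. No libraries of a clone agreed within sampling noise (chi-square per gene 5.49 to 42.4).

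The 7 genes and the lists were chosen with earlier results of these data known. Named genes are the 7, up to 4 called genes of smallest p per list (1 of smallest p where none was called), the 3 of nearest profile (mean log2 CPM of 2 or more), and annotated neighbours, pseudogenes and antisense genes. Alternatives covered the unit, letter block, single libraries, scaling, pseudocount, filter, voom on recovered reads, clone weights, covariates, thresholds and clones left out. Leaving out 3 libraries was chosen after seeing the data. Results of the leukocyte marker list are not reported here.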

Additional observations from a re-analysis of the deposited data

Results flagged for a closer look

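The log2 ratio of VIM to KRT18 in FL clone 9 was 3.60, apart from the other FL clones at 2.72 to 2.82. The gap was 0.891 of the range of the 4 FL clones, above the critical value of 0.829 of Dixon's test. Clone 9 had the highest VIM level of any line (8.91) and a KRT18 level of 5.31, the second lowest. Of 22 sets of clone values tested in this way, this was the only one past its critical value, and chance gives about 1 in 20.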

How the results depend on the processing

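KRT8, CD24, CD44 and WT1 kept direction and call in every alternative run (31 each, 30 for CD24, which a filter at 4 CPM removed), with adjusted p up to 0.022. KRT18 missed only the 2-fold threshold. VIM lost its call in 19 of 31, with values from -1.17 to -0.17. The count of the 7 genes called stayed between 4 and 6. Over all genes, 5080 calls became 2939 with library a only, 3061 with library b only, 3114 with F8 as a covariate, 2715 at an adjusted p under 0.01 and 1724 at 2-fold. Leaving out 1 clone gave 3695 to 5305.

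The sign of CDH2, BDD minus FL, turned with library b only (0.039), median of ratios scaling (0.0097), library totals (0.030), voom on recovered reads (0.028), clone weights (0.14), without BDD clones 7 and 13 (0.060) and without the 3 libraries (0.18). Leaving out 1 clone gave -0.34 to 0.33, the turned values running from 0.036 to 0.33. Against FL with 1 FL clone left out, HEK 28 had CDH2 from -0.0086 to 0.66 and WT1 from -0.083 to 0.18, turned values of WT1 running from -0.083 to -0.0068. KRT8, BDD minus HEK 28, ran from -0.23 to 0.022, turned values from 0.019 to 0.022. The cause was not tested.

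With libraries as separate samples, which counts repeats of a line as independent, 1 of the 7 was called in HEK 28 against FL. In BDD against HEK 28 the count of 2 became 0 without the 3 libraries and 0 to 3 with 1 BDD clone left out, 0 without clone 7 and 1 without clone 1. The share of all genes called was not recorded in these settings, so these counts cannot be weighed against it. KRT8 to KRT18 with library b only was 0.91 (exact permutation p = 0.062).

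The letters a and b did not pair the samples (mean correlation of deviations 0.013 for the same letter, -0.0097 for different letters). With the letter as a replicate block and libraries as separate samples, 6392 genes and 5 of the 7 were called, the call of VIM being lost (adjusted p = 0.088). Depth limits CD24 most, with 0 to 6 reads per FL library.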
